A study of Mus musculus with 12 samples.

Results

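The quantity described here is the change in the effect of β-catenin loss on the embryonic pancreas between 2 days of development: the KO effect at E16.5 minus the KO effect at E14.5. It was computed for 45037 of the 45101 probe sets on the array, leaving out only the Affymetrix control probe sets, and it used all 12 arrays. For each probe set it is the mean log2 ratio of the E16.5 KO arrays minus that of the E16.5 wildtype arrays, less the same subtraction at E14.5. A negative value therefore means that the KO effect was more negative at E16.5 than at E14.5, and a positive value means the reverse. Whether a gene was high or low in the KO on a single day is given only beside this difference.

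Each array held the RNA of 1 embryonic mouse pancreas, amplified in 2 rounds before labeling. Each day had 2 wildtype and 4 KO pancreata. Where the 4 KO values are listed, their order is KO_540C, KO_540G, KO_615A and KO_615B for E14.5, then KO_541J, KO_541L, KO_591C and KO_591D for E16.5. KO embryos were Pdx1Cre/+; beta-catenin flox/flox, and all embryos came from timed matings of Pdx1Cre/+; beta-catenin flox/+ mice. The wildtype embryos were thus from the same type of cross, and the labels do not say whether wildtype and KO embryos shared a litter. The labels do not say which of the other possible alleles a wildtype embryo carried. The array names and the paper give the earlier day as E14.5, while the deposited design text gives it as E14.6. Cre was driven by the Pdx1 promoter, which is active in the pancreatic epithelium and not in its mesenchyme, vessels or nerves, and the paper describes its expression as probably mosaic. Every value had been divided by that day's wildtype mean before deposit and is a linear ratio, so wildtype averages 1 by construction and the normal course of a gene from E14.5 to E16.5 is not in the data. The arrays measured whole pancreata. A lower ratio can therefore come from fewer cells of a type or from less RNA per cell, and these cannot be told apart.

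β-catenin links cadherins to the cytoskeleton at epithelial junctions and carries the canonical Wnt signal to Tcf and Lef factors in the nucleus. In the mouse pancreas the days studied span the secondary transition, when branching epithelium gives rise to acinar and endocrine cells. Acinar cells make digestive zymogens, fold them in a large endoplasmic reticulum (ER) and store them in granules, and their genes are driven in part by the PTF1 complex that contains Ptf1a.

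No probe set of the targeted gene passed the test. On the probe set of Ctnnb1 (β-catenin) chosen by its name, the KO ratios were 0.907, 0.913, 0.956 and 0.845 at E14.5, and then 0.862, 1, 1.04 and 0.936 at E16.5. The KO and wildtype ranges overlapped at E16.5, where wildtype arrays read 0.887 and 1.11. The difference of the KO effects was 0.09 ± 0.16 (log2, standard error) with an adjusted p of 0.932 in the limma fit. The other Ctnnb1 probe sets gave -0.78 ± 0.24 (adjusted p = 0.253) and -0.09 ± 0.34 (adjusted p = 0.972). The loxP sites lie in introns of the gene, and where each probe set lies relative to them was not looked up here, so none of these values checks the deletion.

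The KO effect differed between the days, at a Benjamini-Hochberg adjusted p under 0.05, on 157 of the 45037 probe sets (0.349%). It was more negative at E16.5 on 123 (0.273%) and more positive on 34 (0.0755%). Of the 157, 126 carried 1 gene symbol and belonged to 112 genes, 9 carried several symbols and 22 none. Over all probe sets the median difference was 0.01 (log2), and 47.7% of the differences were negative, so the differences as a whole did not lean to the negative side. At an unadjusted p under 0.05 there were 2270 negative and 2395 positive differences.

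Most of the calls were effects that appeared at E16.5. Taking an effect of at least 0.5 (log2) as present, 126 of the 157 were under this size at E14.5 and past it at E16.5, 108 of them negative and 18 positive. The effect reversed on 25, with opposite signs and a size of at least 0.5 on both days, and 14 of these turned negative and 11 turned positive. It faded on 6, of which 5 had a negative effect at E14.5 and 1 a positive one. None of the calls had the same sign on both days with at least this size. The classes moved with the limit: at 0.26 there were 88 appearing, 67 reversing and 1 fading calls, and at 1 there were 93, 8 and 3. In the same fit 142 of the 157 were also called in the KO effect at E16.5 alone, where 2.62% of all probe sets passed. At E14.5 alone 1 was called, where 0.0111% passed. The difference is built from these same effects and arrays, so an overlap is partly built in and is no independent evidence.

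**Figure D1:**
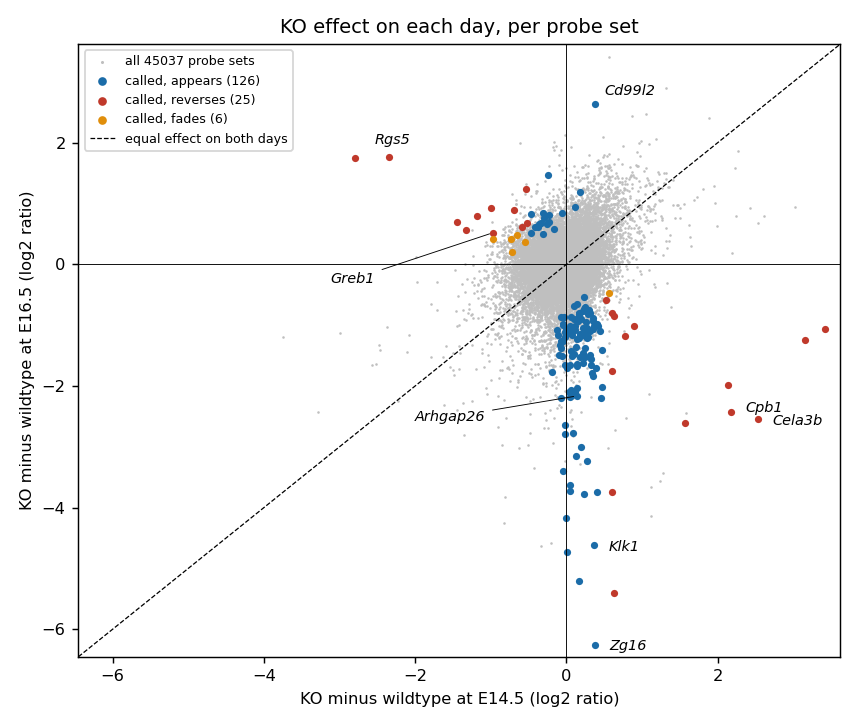
KO minus wildtype at E14.5 (horizontal) against the same at E16.5 (vertical), both as log2 ratios, for all 45037 probe sets (grey) and the 157 called in the difference between days, coloured by whether the effect appears (126), reverses (25) or fades (6). The dashed line marks equal effects. The called probe sets lie mostly in a column near 0 at E14.5 that reaches down to -6.25 for Zg16 at E16.5, with reversing genes such as Cpb1 and Cela3b to the lower right and Rgs5 to the upper left.

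By size, genes of acinar secretion led the called negative differences on probe sets with 1 symbol. By p the leading genes were more mixed, with Arhgap26, Slc16a6 and Surf4 also near the top. The smallest p of all belonged to Zg16, a lectin of the zymogen granule membrane. Its KO ratios were 1.19, 1.35, 1.28 and 1.38 at E14.5, all above the wildtype values of 0.947 and 1.05. At E16.5 they were 0.0106, 0.01, 0.0129 and 0.0152, all below the wildtype values of 0.601 and 1.40. The lowest of these, 0.01, is also the lowest ratio in the deposited values, so the size of the fall may be cut short there. All KO arrays above wildtype and then all below it was an order that 0.695% of all probe sets showed. The KO effect went from 0.38 to -6.25, a difference of -6.63 ± 0.38 (log2; limma adjusted p = 4.06e-05). Both other probe sets of Zg16 were called as well, at -6.04 and -2.87.

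The tissue kallikrein Klk1, a serine protease, behaved in the same way. Its KO ratios were 1.05, 1.33, 1.23 and 1.6 at E14.5 and later 0.0454, 0.0246, 0.0386 and 0.0633 at E16.5. Wildtype arrays read 1.016 and 0.984 at E14.5 and 1.06 and 0.938 at E16.5. Every KO array was thus above the day's wildtype at E14.5, by little for KO_540C, and far below it at E16.5. This order was seen on 0.695% of all probe sets. The difference was -4.98 ± 0.40 (adjusted p = 0.000337), and a second probe set gave -4.74. A further pair of Klk1 probe sets, both ending in _x_at, read near 1 on all arrays and gave -0.04 and 0.07, so the probe sets of this gene disagree.

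A pair of genes outside the enzyme lists stood beside them. Arhgap26 had KO ratios of 1.23, 1.07, 1.13 and 0.996 at E14.5 but 0.20, 0.211, 0.27 and 0.218 at E16.5, against wildtype values from 0.935 to 1.06. The difference was -2.31 ± 0.18 (adjusted p = 0.000337), and the other Arhgap26 probe sets gave -1.87 (adjusted p = 0.0578), -0.08 and 0.30. Slc16a6, of the monocarboxylate transporter family, had KO ratios of 0.885, 0.907, 0.948 and 0.785 at E14.5, and then 0.266, 0.274, 0.318 and 0.321 at E16.5, a difference of -1.58 ± 0.16 (adjusted p = 0.00218). Its 4 KO arrays were already below both wildtype arrays at E14.5, but by little. How often all probe sets showed such an order on 1 day alone was not counted. These 4 genes, Zg16, Klk1, Arhgap26 and Slc16a6, were the only ones with a single symbol whose call held whichever of the 12 arrays was left out. None of the 4 kept its call under every other variance model, scaling or floor that was tried.

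**Figure D2:**
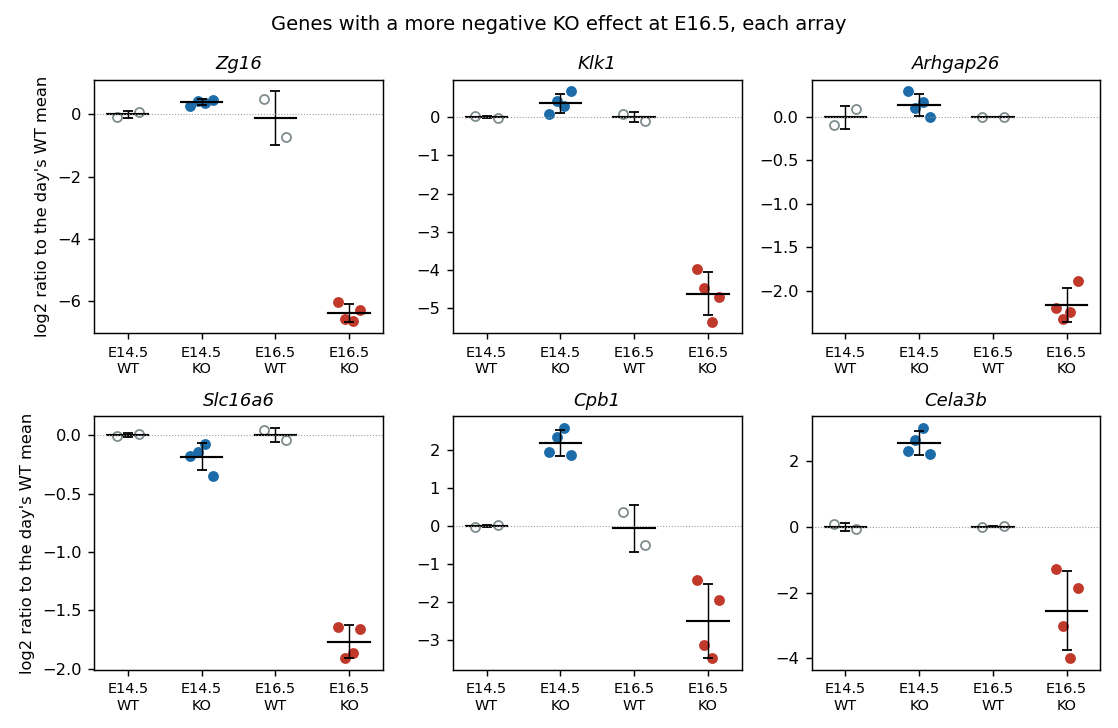
Log2 ratio to the day's wildtype mean on each of the 12 arrays for 6 genes whose KO effect was more negative at E16.5. Open points are wildtype and filled points KO pancreata, horizontal bars are group means and error bars are SDs (n = 2 wildtype and 4 KO a day). In Zg16, Klk1 and Arhgap26 the E14.5 KO arrays lie close to wildtype, in Slc16a6 slightly below it, and in Cpb1 and Cela3b clearly above it. The 4 E16.5 KO arrays of each gene lie below both wildtype arrays, and how many of all probe sets show this at E16.5 alone was not counted.

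Among 11 measured acinar serine proteases, 5 were called: Klk1, Prss3, Cela3b, Ctrl and Prss2. All 5 were more negative at E16.5, a call made on 0.273% of all probe sets. Their list had a median difference of -3.27 (log2), with 10 of 11 negative, beside 0.01 and 47.7% over all probe sets. The list's median KO effect was 0.13 at E14.5 against -2.73 at E16.5. On single arrays the median of the list's log2 ratios lay between 0.07 and 0.30 in the E14.5 KO, and at -3.38, -3.81, -2.08 and -1.88 in the E16.5 KO. The lower pair are the arrays whose names hold the number of KO_541J and the higher pair those with the number of KO_591C, and the part of this number in the result was not tested. Leaving out 1 array gave 1 call in this list without WT_522B or WT_522C, 2 without WT_622A or KO_615B, 3 without WT_628G or KO_540G, KO_615A or KO_541J, and 4 without KO_540C, KO_541L or KO_591C. Without KO_591D there were 7. Several of these proteases are close relatives, and probe sets of a family may share target RNA.

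The promoters of 5 called enzymes described here, 4 of these serine proteases and the carboxypeptidase Cpb1, are shown from RefSeq on build GRCm38.p6. They are a selection, and that of the called protease Prss2 is not shown. Klk1 and Ctrl are effects that appeared, Cpb1 and Prss3 are effects that reversed, and the probe sets of Cela3b fall in both classes. Each is shown from 250 bases before the transcription start up to the start, 5′ to 3′ on the gene's own strand. Capitals mark every E-box (CANNTG) and every TGGGAA on either strand, the letters of the bipartite site known for PTF1; the E-box reads the same on both strands and none shown overlaps a TGGGAA.
Klk1: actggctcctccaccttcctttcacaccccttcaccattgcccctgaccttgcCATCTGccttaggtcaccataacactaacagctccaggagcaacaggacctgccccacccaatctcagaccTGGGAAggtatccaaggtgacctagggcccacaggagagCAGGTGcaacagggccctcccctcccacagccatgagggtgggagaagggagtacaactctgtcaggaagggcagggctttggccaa
Ctrl: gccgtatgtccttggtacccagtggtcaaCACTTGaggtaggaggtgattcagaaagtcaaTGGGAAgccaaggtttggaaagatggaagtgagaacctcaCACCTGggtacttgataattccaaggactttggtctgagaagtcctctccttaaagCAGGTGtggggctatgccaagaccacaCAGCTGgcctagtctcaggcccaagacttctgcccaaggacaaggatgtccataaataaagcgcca
Cpb1: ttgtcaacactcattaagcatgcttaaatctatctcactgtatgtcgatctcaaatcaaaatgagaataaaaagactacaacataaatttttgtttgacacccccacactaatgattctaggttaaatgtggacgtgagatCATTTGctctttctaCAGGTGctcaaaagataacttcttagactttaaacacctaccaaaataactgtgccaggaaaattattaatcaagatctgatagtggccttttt
Cela3b: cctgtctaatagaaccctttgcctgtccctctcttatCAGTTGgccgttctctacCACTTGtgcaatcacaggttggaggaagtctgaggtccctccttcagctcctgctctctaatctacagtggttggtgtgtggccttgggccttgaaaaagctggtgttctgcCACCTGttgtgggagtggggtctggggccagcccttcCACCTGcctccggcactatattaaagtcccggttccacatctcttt
Prss3: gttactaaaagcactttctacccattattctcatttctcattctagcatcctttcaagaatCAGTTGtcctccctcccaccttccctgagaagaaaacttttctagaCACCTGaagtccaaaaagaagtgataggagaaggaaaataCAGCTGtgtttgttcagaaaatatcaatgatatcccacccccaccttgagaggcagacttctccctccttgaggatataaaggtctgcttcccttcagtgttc
They lie at chr7:44225110-44225359 (plus strand), chr8:105933863-105934112 (minus strand), chr3:20275734-20275983 (minus strand), chr4:137430521-137430770 (minus strand) and chr6:41377614-41377863 (minus strand), in the order printed. Klk1 and Ctrl hold 1 TGGGAA each and the others none, and the number of E-boxes runs from 2 in Klk1 and Cpb1 to 4 in Ctrl and Cela3b. An E-box is common: 66.2% of all 32851 promoters in the table hold one in this window, and 21.6% hold a TGGGAA. Of the 20 measured enzyme genes of the protease list and the list of other enzymes, 18 had a promoter in the table. Of these, 15 held an E-box and 12 a TGGGAA. Of the 87 genes called as more negative, 71 had a promoter in the table, and 42 held an E-box and 19 a TGGGAA. Of the 25 called as more positive, 23 had one, and 16 held an E-box and 9 a TGGGAA. A match is a description of letters and not of a binding site.

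Among the enzymes whose effect reversed was Cpb1, a carboxypeptidase zymogen. Its KO ratios were 3.81, 5.06, 5.93 and 3.64 at E14.5 against wildtype values of 0.987 and 1.01. At E16.5 they were 0.114, 0.0901, 0.259 and 0.376 against 0.708 and 1.29. All KO arrays were thus above wildtype on the first day and below it on the second, an order that 0.695% of all probe sets showed. The KO effect went from 2.17 ± 0.48 to -2.43 ± 0.48, and the difference was -4.60 ± 0.68 (adjusted p = 0.0197). The E14.5 effect alone did not pass (adjusted p = 0.406).

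Cela3b, a pancreatic elastase, was called on 4 probe sets that disagreed about E14.5. On the probe set ending in _a_at the KO ratios were 4.93, 6.17, 7.94 and 4.56 at E14.5 and later 0.123, 0.0628, 0.273 and 0.406 at E16.5, a difference of -5.08 ± 0.79 (adjusted p = 0.0242). On both ending in _x_at the E14.5 KO ratios were high as well, reaching 13.7 on one, and the differences were -4.39 and -4.12. On the fourth, ending in plain _at, the E14.5 KO ratios were only 1.05, 1.36, 1.31 and 1.12, and those at E16.5 were 0.0669, 0.0631, 0.156 and 0.183, which gave -3.51 ± 0.54 (adjusted p = 0.0227). At E16.5 the 4 KO arrays lay below both wildtype arrays on all 4 probe sets. The share of all probe sets with this order at E16.5 alone was not counted. The E16.5 effect alone passed only on the _a_at and the plain _at probe set. The high E14.5 values were seen on the probe sets ending in _a_at and _x_at and not on the fourth.

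Prss3, a trypsinogen, had KO ratios of 1.07, 2.08, 1.64 and 1.41 at E14.5 but 0.0458, 0.0377, 0.0869 and 0.205 at E16.5. The difference was -4.35 ± 0.74 (adjusted p = 0.0364). Ctrl, a chymotrypsin-like protease, was close to wildtype at E14.5, with KO ratios of 1.04, 1.19, 1.06 and 1.09. Its E16.5 ratios were 0.0962, 0.0711, 0.117 and 0.131, and its difference was -3.27 ± 0.44 (adjusted p = 0.014). Prss2, the anionic trypsinogen, gave -2.22 ± 0.40 (adjusted p = 0.0461), and its other 3 probe sets were not called. Cela2a, a further elastase, had a difference of -4.72 that did not pass (adjusted p = 0.0911).

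Of 9 measured digestive enzymes outside the protease list, only Cpb1 was called as more negative, beside 0.273% of all probe sets. The list's median difference was -2.12, and 7 of 9 were negative, beside 47.7% of all probe sets. Rnase1, the pancreatic ribonuclease, had the largest difference in this list at -5.26 ± 1.13 without passing (adjusted p = 0.0936). Its KO ratios were 2.15, 1.61, 2.71 and 2.38 at E14.5 and spread from 0.01 to 0.16 at E16.5. Pnliprp2, a lipase-related protein, and Clps, the lipase cofactor colipase, had differences of -3.43 and -2.30 and did not pass. The list's median KO effect was -0.27 at E14.5 against -2.43 at E16.5, with single E14.5 KO arrays from -1.27 to 0.56. Without WT_522B, WT_522C or WT_628G no member was called, and without KO_591D or KO_541L there were 2.

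In the list of zymogen granule and Reg genes the median difference was -1.24, with 15 of 18 negative, beside 47.7% of all probe sets. On the chosen probe set 3 of 18 were called, all more negative at E16.5, beside 0.273% of all probe sets. They were Zg16, Cuzd1 (a granule membrane protein) at -3.36 ± 0.62 (adjusted p = 0.0485), and Rab3d (a small GTPase of secretory granules) at -2.09 ± 0.34 (adjusted p = 0.0308). Sycn, the granule protein syncollin, was called on another probe set, with KO ratios of 0.848, 1.14, 1.39 and 0.737 at E14.5, and then 0.0553, 0.0201, 0.0771 and 0.101 at E16.5, a difference of -4.16 ± 0.71 (adjusted p = 0.0365). Tmed11, a cargo receptor of the early secretory pathway, gave -4.38 (adjusted p = 0.0545), and Reg1 gave -2.39 (adjusted p = 0.214). The count was 0 without WT_522B or WT_522C, 1 without KO_540C, KO_615A, KO_615B, KO_541J or KO_591C, and 5 without KO_591D or WT_622A. Without KO_541L or WT_628G it was 2, and without KO_540G it stayed at 3.

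Of 10 transcription factors of acinar cells none was called by limma, and their median difference was -0.15 with a median KO effect of -0.24 at E14.5 against -0.41 at E16.5. Ptf1a had KO ratios of 0.263, 0.269, 1.48 and 0.149 at E14.5 and later 0.29, 0.0911, 0.461 and 0.656 at E16.5. The KO arrays of the 2 days overlap, KO_615A stands above the rest, and the difference was -0.24 ± 1.18 (adjusted p = 0.98). This interval is too wide to show that the Ptf1a effect was equal on the 2 days. Gata4 and its list neighbour Rbpjl, the acinar partner of Ptf1a, had differences of -1.10 and -0.75 that did not pass. At an unadjusted p under 0.05, 2 of the 10 were negative and none was positive. Over all 45037 probe sets 2270 were negative and 2395 positive at that limit.

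Genes that fold and export secreted proteins had mostly negative differences of smaller size. In the list of ER folding and secretory load the median difference was -0.70. The list's median KO effect was 0.01 at E14.5 against -0.68 at E16.5. A negative difference was seen in 26 of its 27 genes, beside 47.7% of all probe sets. Only 1 was called on the chosen probe set, Sdf2l1 (an ER chaperone partner) at -1.89 ± 0.32 (adjusted p = 0.0365). Hyou1 (an ER chaperone) was called on another probe set at -1.41 ± 0.22 (adjusted p = 0.0237). Over all probe sets 0.273% were called as more negative. At an unadjusted p under 0.05 the count was 14 of 27, all negative, beside 2270 negative ones of all 45037 probe sets. Pdia2, the pancreatic disulfide isomerase, had a difference of -4.80, and Edem1 and Herpud1, of ER-associated degradation, had -2.44 and -2.10, and none of the 3 passed. Sdf2l1 kept its call in 2 of the 12 fits that left out an array, those without KO_591D (4 calls in the list) and without WT_628G (2 calls), and the list had 0 calls in the others.

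Some called genes of the secretory pathway were on no list and are given singly. Surf4, a cargo receptor of the ER, had KO ratios of 1.23, 1.18, 1.27 and 1.3 at E14.5 but 0.437, 0.452, 0.482 and 0.486 at E16.5, a difference of -1.41 ± 0.15 (adjusted p = 0.00332). Os9, a lectin of ER-associated degradation, gave -1.38 ± 0.16 (adjusted p = 0.00671). Copz2, a subunit of the vesicle coat, reversed from 0.78 to -1.17, with a difference of -1.95 (adjusted p = 0.0212). Surf4 and Os9 each had other probe sets that were not called.

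Ero1b, the oxidase that drives disulfide formation in the ER of secretory cells, also reversed. Its KO ratios were 2.03, 1.63, 1.66 and 2.20 at E14.5, above wildtype values of 0.972 and 1.03. At E16.5 they were 0.344, 0.473, 0.594 and 0.551, below wildtype values of 0.757 and 1.24. This order, above and then below, was seen on 0.695% of all probe sets. The difference was -1.91 ± 0.33 (adjusted p = 0.0378), and the other Ero1b probe sets gave -1.84 and -0.26 without a call. Its promoter is printed because it holds the ER stress element (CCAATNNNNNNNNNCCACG on either strand), marked in capitals, from chr13:12565633-12565882 (plus strand) of GRCm38.p6.
Ero1b: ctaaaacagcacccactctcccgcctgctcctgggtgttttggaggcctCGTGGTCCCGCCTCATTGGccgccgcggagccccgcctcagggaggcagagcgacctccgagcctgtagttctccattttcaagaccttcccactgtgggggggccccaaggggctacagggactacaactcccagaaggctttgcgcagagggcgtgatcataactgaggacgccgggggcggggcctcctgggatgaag
This element was found in 0.113% of all promoters of this length in the table, 37 of 32851. Of the 87 genes called as more negative, 71 had a promoter in the table and 2 of these held it, Ero1b and Derl3. They were picked out after their sequences were read, and no test was made of the overlap.

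Other genes called as more negative had varied roles. Ang, the ribonuclease angiogenin, gave -2.12 ± 0.27 (adjusted p = 0.0106), with KO ratios of 1.06, 1.05, 1.09 and 0.961 at E14.5, and then 0.216, 0.21, 0.215 and 0.292 at E16.5. Aldh1l1, an enzyme of folate metabolism, gave -2.76 ± 0.32 (adjusted p = 0.00548), and Gnmt, the glycine methyltransferase, gave -3.20 ± 0.57 (adjusted p = 0.0447). Gstt2, a glutathione transferase, gave -1.68, Adhfe1, a mitochondrial dehydrogenase, gave -2.62, and Adap2 gave -1.54. Tma16, Fam234a, Tsks and 4933438K21Rik had differences of -1.72, -1.36, -2.35 and -1.80. In the list of serine and amino acid metabolism Gnmt was the only one of 25 called, beside 0.273% of all probe sets called as more negative. The list's median was -0.37. The Gnmt call held in 3 of the 12 fits with an array left out, those without KO_591D, WT_622A or KO_541L. Without KO_591D the list had 2 calls.

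Some genes that respond to low oxygen were among the calls, while most of their list was not. Of 23 genes of glycolysis and hypoxia, 2 were called on the chosen probe set, Ndrg1 at -1.21 and Egln3 (a prolyl hydroxylase that acts on hypoxia-inducible factors) at -1.09, and the list median was -0.24. Ndrg1 was called on 3 probe sets and Egln3 on 2. Members such as Vegfa at 0.03, Pgk1 at 0.15 and Car9 at -0.34 were not called. In the list 17 of 23 differences were negative and 6 positive. Over all probe sets 47.7% were negative, and 0.273% were called as more negative. Hif3a, a subunit of such a factor, was not on the list and was called on 2 probe sets, at -1.27 ± 0.14 (adjusted p = 0.00548) and -1.48 ± 0.22 (adjusted p = 0.0197). Its E16.5 KO ratios on the first were 0.495, 0.482, 0.491 and 0.457, and those at E14.5 were 1.22, 1.21, 1.01 and 1.23. Without WT_522B or WT_522C, or without KO_540G, KO_615A, KO_615B, KO_541J or KO_591C, the list had 0 calls, and without KO_540C, KO_541L or WT_628G it had 1.

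Slc30a7, a zinc transporter of the secretory pathway, was the only fading call with a positive effect at E14.5. The KO ratios were 1.5, 1.48, 1.43 and 1.49 at E14.5 and later 0.661, 0.676, 0.734 and 0.807 at E16.5, a difference of -1.03 ± 0.16 (adjusted p = 0.0227). The 4 KO arrays were above both wildtype arrays at E14.5 and below both at E16.5, an order that 0.695% of all probe sets showed. The fading class here thus rests on the size limit of 0.5, since the E16.5 effect was -0.47. Slc30a7 was the 1 call among 11 genes of the metallothionein and zinc list, beside 0.273% of all probe sets called as more negative. The list's median was -0.31. That list had 0 calls without WT_522B, WT_522C, WT_628G, KO_615B or KO_541J and 2 without KO_591D. Mt2, a metallothionein, had a difference of -1.48 that did not pass.

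Fewer of the calls were positive, 34 against 123. Rgs5, a regulator of G-protein signaling found in pericytes, had the largest among probe sets with 1 symbol. In the KO its ratios were 0.175, 0.169, 0.235 and 0.206 at E14.5, all below the wildtype values of 0.845 and 1.16. At E16.5 they were 4.17, 3.23, 2.26 and 1.96, all above the wildtype values of 0.424 and 1.58. This order, below and then above, was seen on 1.01% of all probe sets. The difference was 4.11 ± 0.61 (adjusted p = 0.0194), but the other 3 probe sets of Rgs5 gave 0.82, 0.26 and 0.17 without a call. The wildtype arrays of E16.5 themselves lay far apart.

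Greb1, known as an estrogen-responsive gene, had the smallest p among the named positive calls. The KO ratios were 0.562, 0.468, 0.598 and 0.431 at E14.5 but 1.58, 1.3, 1.5 and 1.37 at E16.5, while the 4 wildtype arrays stayed between 0.987 and 1.01. The KO effect went from -0.97 ± 0.13 to 0.52 ± 0.13, a difference of 1.49 ± 0.19 (adjusted p = 0.00998). The other 3 Greb1 probe sets gave 0.08, 0.16 and 0.08 and were not called.

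Cd99l2, which encodes a cell surface protein related to CD99, was the largest positive effect that appeared on a probe set with 1 symbol. In the KO its ratios were 1.37, 1.08, 1.48 and 1.26 at E14.5, and then 7.80, 5.42, 5.86 and 5.43 at E16.5. The difference was 2.26 ± 0.30 (adjusted p = 0.0138). Its other probe sets gave -0.38, 0.51 and 0.80, none called, so the sign was not the same on all of them.

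**Figure D3:**
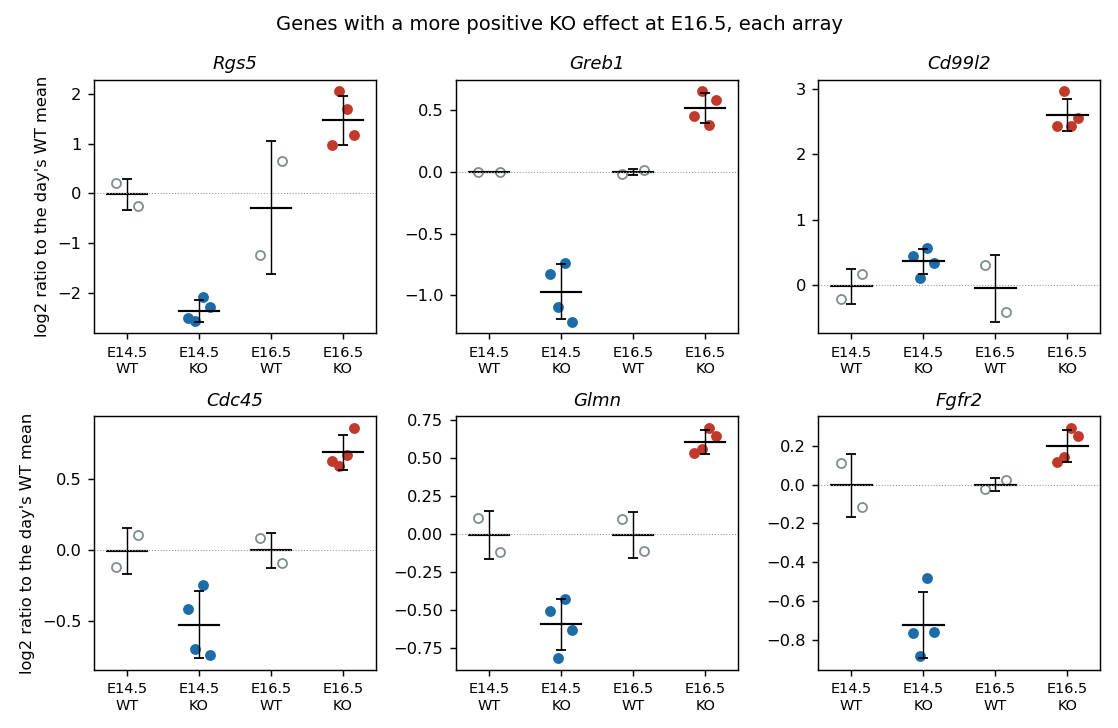
Log2 ratio to the day's wildtype mean on each of the 12 arrays for 6 genes whose KO effect was more positive at E16.5, drawn as for the negative genes (open points wildtype, filled points KO, bars means, error bars SDs). In Rgs5, Greb1, Cdc45 and Glmn the KO arrays lie below wildtype at E14.5 and above it at E16.5, an order that 1.01% of all probe sets showed. In Cd99l2 they lie above it mainly at E16.5, and in Fgfr2 they lie below it mainly at E14.5.

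Glmn, which encodes a regulator of cullin-RING ubiquitin ligases, had KO ratios of 0.707, 0.569, 0.745 and 0.647 at E14.5 and later 1.47, 1.62, 1.56 and 1.45 at E16.5, a difference of 1.2 ± 0.18 (adjusted p = 0.0185). The 3 called probe sets of Nup62, a nuclear pore protein, had differences between 0.92 and 1.03, and its others gave 1.18 and 0.06 without a call. Fgfr2, a receptor for the Fgf10 made by pancreatic mesenchyme, was called on the probe set ending in _s_at, where the KO ratios were 0.588, 0.541, 0.716 and 0.59 at E14.5 but 1.10, 1.22, 1.19 and 1.08 at E16.5. This difference was 0.92 ± 0.17 (adjusted p = 0.0482), and the other Fgfr2 probe sets gave -0.13 and 0.11. The Fgfr2 call was lost in 10 of the 12 fits that left out an array, and in the Fgf signaling list as a whole none of 17 genes was called on the chosen probe set, with a median of 0.02.

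Further positive calls were Col8a1 (a network-forming collagen) at 1.78, Ifi202b (an interferon-inducible gene) at 1.92, Spata5l1 at 1.38 and Rad1 (a subunit of a DNA damage checkpoint clamp) at 1.15. Tsn, Ttc14, Mrpl3, Osbpl6, Pabpn1 and Dnajc8 had differences of 1.04, 1.01, 0.98, 0.91, 0.92 and 0.74. Rad54l, of homologous recombination, gave 0.81, and Sgo1, which guards sister chromatid cohesion, gave 1.13.

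Genes of the cell cycle had mostly positive differences of moderate size, with hardly any calls. Of 21 measured DNA replication genes, 20 had a positive difference and the median was 0.66, while 47.7% of all probe sets had a negative difference. The list's median KO effect was -0.48 at E14.5 against 0.13 at E16.5. In the list 13 of 21 were below 0 and then above it, beside 23.2% of all probe sets. By array, the list's median log2 ratio was -0.05, 0.07, 0.23 and 0.04 in the E16.5 KO. The E16.5 wildtype arrays stood at -0.39 and 0.31, so at E16.5 the KO values lay inside the wildtype range. Only Cdc45, a subunit of the replicative helicase, was called as more positive, beside 0.0755% of all probe sets. The KO ratios were 0.753, 0.618, 0.845 and 0.599 at E14.5, and then 1.5, 1.59, 1.81 and 1.54 at E16.5, and the difference was 1.2 ± 0.21 (adjusted p = 0.0385), a call that held in 2 of the 12 fits with an array left out. Ccne2, the cyclin of S-phase entry, gave 1.46, Rfc3, of the clamp loader, 1.11, and Gins2, of the helicase, 1.03, all without passing.

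Of 21 mitosis genes 20 were positive, while 47.7% of all probe sets had a negative difference. The median was 0.57, and 14 of the 21 were below 0 and then above it, beside 23.2% of all probe sets. None of the 21 was called by limma. Of these 9 had an unadjusted p under 0.05, as had 8 of the replication genes, all positive. Over all 45037 probe sets 2395 were positive at that limit. Cdk1, the mitotic kinase, had KO ratios of 0.839, 0.539, 0.712 and 0.508 at E14.5 and later 1.21, 1.57, 1.55 and 1.63 at E16.5, a difference of 1.22 ± 0.27 (adjusted p = 0.104). Ccnb2, Aurkb and Bub1 gave 1.09, 1.06 and 1.06. By array, the list's median log2 ratio was -0.35, -0.73, -0.08 and -0.61 in the E14.5 KO, and 0.02, 0.10, 0.35 and 0.19 in the E16.5 KO. Without KO_540C 1 mitosis gene was called. The E16.5 wildtype arrays alone stood at 0.19 and -0.22, so at E16.5 the KO values overlapped the wildtype range.

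**Figure D4:**
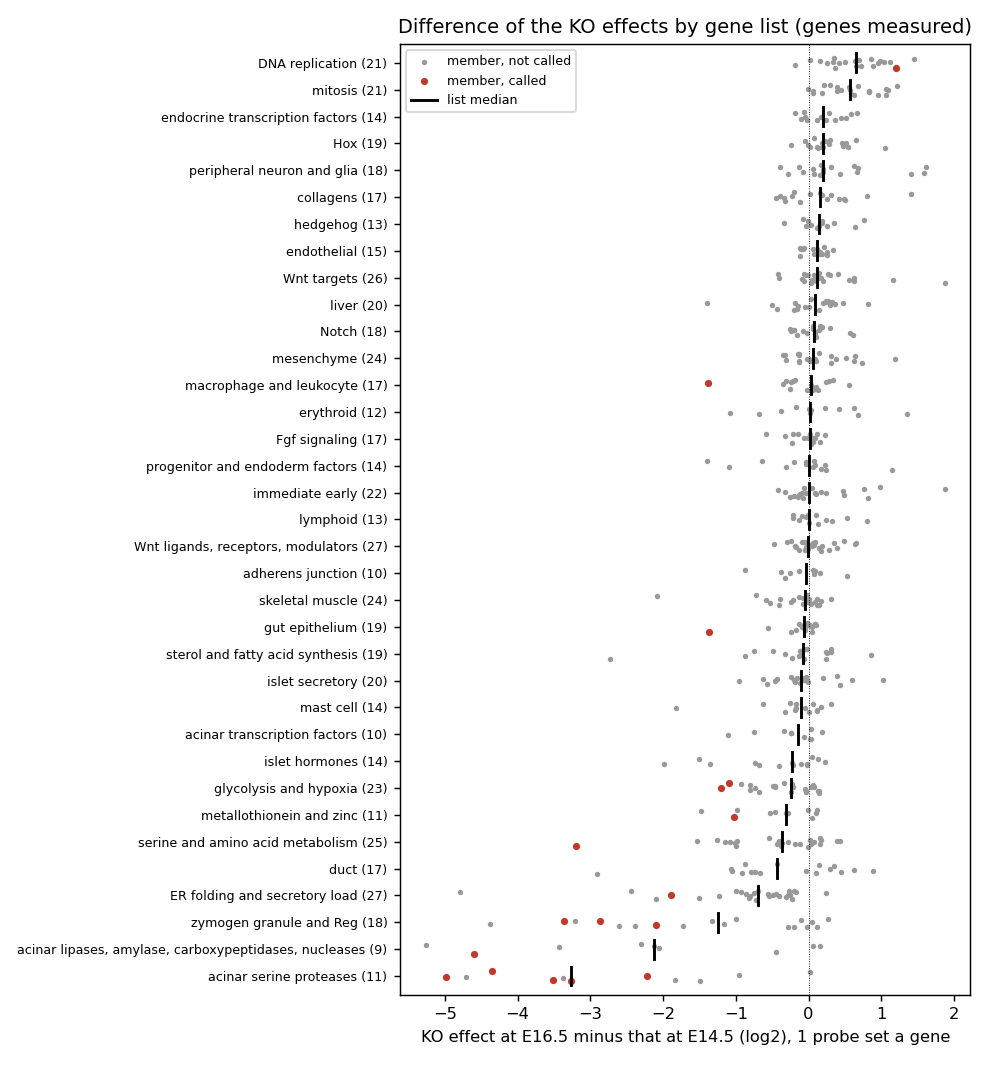
Difference of the KO effects (E16.5 minus E14.5, log2) for each measured gene of 35 lists, with 1 probe set a gene, ordered by list median (black bar). Red points passed the test over all probe sets. The lists of DNA replication (0.66) and mitosis (0.57) lie highest and those of acinar enzymes (-3.27 and -2.12) lowest, while most others have medians near 0.

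The lists of Wnt signaling, in which β-catenin acts, held no call. None of 26 Wnt target genes passed in limma. The median difference was 0.12 with 19 of 26 positive, while 47.7% of all probe sets had a negative difference. At an unadjusted p under 0.05 there were 3 positive and 0 negative ones, beside 2395 and 2270 of all 45037 probe sets. Jun, an AP-1 subunit that was also on the immediate early list, had the largest value at 1.87 ± 0.55 (adjusted p = 0.222). Mycn and Cd44 gave 1.16 and 0.63, and Myc gave -0.43, all without passing. The list of Wnt ligands, receptors and modulators had a median of -0.0027 over 27 genes, and that of the adherens junction -0.04 over 10. Sostdc1, a secreted modulator of Wnt and Bmp signals that was on none of the lists, was called at -1.70 ± 0.23 (adjusted p = 0.0135), and the call held in 10 of the 12 fits with an array left out. It is outside the rule for named genes and was chosen after its values were seen.

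Endocrine genes held no call. Ins2, an insulin gene, had KO ratios of 6, 5.8, 3.14 and 3.93 at E14.5 but 1.04, 1.62, 1.5 and 0.662 at E16.5. Its difference was -1.99 ± 0.48 (adjusted p = 0.134). Npy, Iapp and Gip, which encode peptides of endocrine cells, gave -1.50, -1.35 and -0.74. The medians were -0.22 over 14 islet hormone genes, -0.10 over 20 islet secretory genes and 0.20 over 14 endocrine transcription factors. Of the islet hormone genes 4 were negative at an unadjusted p under 0.05, beside 2270 of all 45037 probe sets. Among 14 progenitor and endoderm factors the median was 0.01, with Foxa3 and Hnf4a at -1.40 and -1.09, Hhex at 1.15 and Pdx1 at -0.64, none called. Of 17 duct genes none was called, the median was -0.44, Anxa13 had a difference of -2.91 (adjusted p = 0.0529) and Krt19 of -1.07.

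Lists for other cells that a dissected pancreas can hold had medians close to that of all probe sets. The share called as more negative was 0.273% over all probe sets. The median was 0.03 over 17 macrophage and leukocyte genes, where C1qa, a complement subunit, was the 1 call at -1.38 ± 0.20 (adjusted p = 0.0196), and -0.06 over 19 gut epithelium genes, where Vil1, of the brush border, was the 1 call at -1.37 (adjusted p = 0.0324). The C1qa call was lost without WT_522B, WT_522C, WT_622A or KO_541J, and the Vil1 call held only without KO_591D, WT_622A or KO_540G. No gene was called among 14 mast cell (median -0.11), 13 lymphoid (0.00115), 24 skeletal muscle (-0.04), 12 erythroid (0.03), 20 liver (0.09), 24 mesenchyme (0.06), 15 endothelial (0.12) and 18 peripheral neuron and glia genes (0.20). Single members with large values were Cpa3 of mast cells at -1.82, Myh8 of muscle at -2.08 and Nefm of neurons at 1.62, none of which passed. Their part in the other results was not tested. The remaining lists had no call either: collagens (median 0.16, with Col9a1 at 1.41), hedgehog (0.14), Notch (0.08), Hox (0.20), immediate early genes (0.00664) and sterol and fatty acid synthesis (-0.08, with Insig1 at -2.73). Of 62 measured genes that the paper names, 9 were called on the chosen probe set, all more negative, beside 0.273% of all probe sets. The median of the 62 was -0.27. Since the study chose these genes on these samples, the count is no independent evidence.

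How many probe sets were called depended on single arrays. Without WT_522B there were 8 and without WT_522C 10. Where a wildtype array is left out, the 1 that remains on that day is taken to vary like the other groups, and without WT_628G or WT_622A there were 168 and 164 calls. Without KO_541J, KO_615B, KO_591C, KO_541L or KO_615A there were 58, 66, 84, 88 and 103, and without KO_591D there were 408, which included all 157. The other 4 arrays moved the count by less than 1.5 times, from 112 to 168. None of the 157 differences changed sign in any of these fits, and 8 held their call in all 12, all of them more negative at E16.5.

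**Figure D5:**
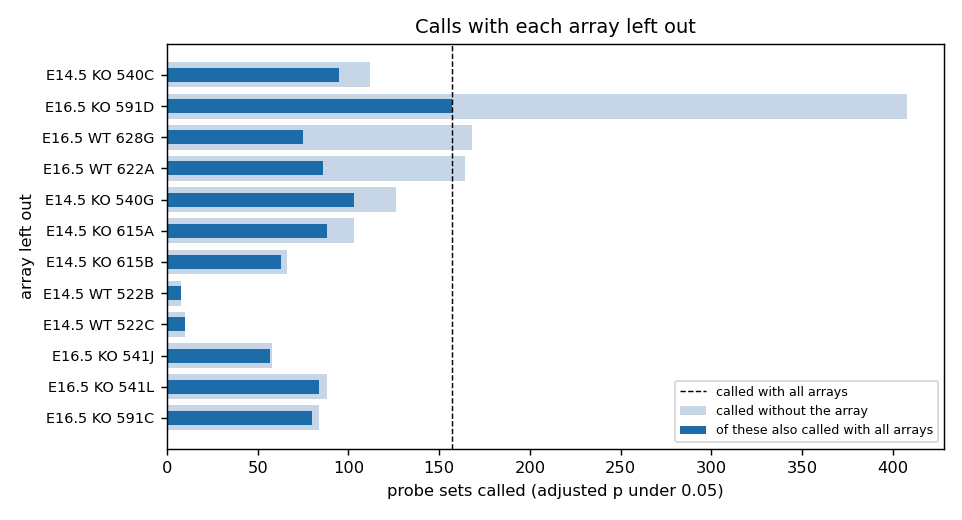
Number of probe sets called when each of the 12 arrays is left out (light bars), and how many of these were also among the 157 called with all arrays (dark bars, dashed line). The counts run from 8 without WT_522B to 408 without KO_591D.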

How the data were processed

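Pancreata were compared as 4 groups (2 wildtype and 4 KO arrays on each day), by the array titles. According to the deposited labels and the paper, the authors summarized the Affymetrix arrays with RMA in GeneSpring and deposited linear ratios to the mean of the day's wildtype arrays. No raw arrays were used here, so signal over background is unknown. Since the divisor is 1 constant per probe set and day, it cancels in the difference of the KO effects. Ratios were taken to log2 and fitted with limma 3.58.1 in R 4.3.3 (8 residual degrees of freedom, moderated variance), and p-values were two-sided and adjusted by Benjamini-Hochberg over all 45037 probe sets, with a limit of 0.05. The fit was first tested on simulated data.

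Gene symbols came from the array's annotation, updated through RefSeq. Probe sets with several symbols were tested but not named. Named are the 15 genes with the smallest p in each direction, the 8 with the largest difference in each class, genes the paper names, and list members that were called or among the 4 of the largest size in their list. For list counts 1 probe set a gene was chosen by its name alone. No gene set was tested: a list is described by counts and its median. The members and the lists were chosen with earlier results of these data known. Alternatives were other variance models, other scalings, a floor on low ratios, linear ratios, fewer probe sets and each array left out. No number in the array names is shared between groups. Within groups it is shared by pairs of arrays (both E14.5 wildtype arrays and 2 pairs in each KO group), the labels do not explain it, and it was tried as a random block (193 calls, correlation -0.0876). The p-values measure the spread between single pancreata within the groups and take these pancreata as independent. Since no number spans 2 groups, a part of the number in the differences cannot be told apart from genotype and day. Drawing used matplotlib.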

Additional observations from a re-analysis of the deposited data

Results flagged for a closer look

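The KO effect differed between the days by the interaction test in limma on each of the 66 called probe sets that carry a named gene. The values are the E16.5 effect minus the E14.5 effect (log2), with 1 value for each called probe set. Among genes of acinar secretion they were Cela3b -5.08, -3.51, -4.12 and -4.39, Cpb1 -4.6, Ctrl -3.27, Cuzd1 -3.36, Klk1 -4.98 and -4.74, Prss2 -2.22, Prss3 -4.35, Rab3d -2.49 and -2.09, Sycn -4.16 and Zg16 -2.87, -6.63 and -6.04. Among genes of the ER and its export route they were Copz2 -1.95, Ero1b -1.91, Hyou1 -1.41, Os9 -1.38, Sdf2l1 -1.89 and Surf4 -1.41. The other negative differences were 4933438K21Rik -1.8, Adap2 -1.54, Adhfe1 -2.62, Aldh1l1 -2.76, Ang -2.12, Arhgap26 -2.31, C1qa -1.38, Egln3 -1.09 and -2.12, Fam234a -1.36, Gnmt -3.2, Gstt2 -1.68, Hif3a -1.27 and -1.48, Ndrg1 -1.21, -1.33 and -1.79, Slc16a6 -1.58, Slc30a7 -1.03, Tma16 -1.72, Tsks -2.35 and Vil1 -1.37. The positive differences were Cd99l2 2.26, Cdc45 1.2, Col8a1 1.78, Dnajc8 0.737, Fgfr2 0.919, Glmn 1.2, Greb1 1.49, Ifi202b 1.92, Mrpl3 0.981, Nup62 0.916, 1.03 and 0.998, Osbpl6 0.913, Pabpn1 0.923, Rad1 1.15, Rad54l 0.813, Rgs5 4.11, Sgo1 1.13, Spata5l1 1.38, Tsn 1.04 and Ttc14 1.01.

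Of 212 groups of 4 KO arrays examined, 8 held 1 array that lay apart from the other 3, where chance alone gives about 10.6. At E14.5 these were the ratios of KO_615A for Hif3a (1.01), Pnliprp2 (1.48) and Edem1 (1.59), of KO_615B for Clps (0.415) and of KO_540G for Herpud1 (0.749). At E16.5 they were those of KO_591D for Ang (0.292), KO_541J for Cdk1 (1.21) and KO_591C for Bub1 (1.40).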

How the results depend on the processing

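With 2 wildtype arrays a day and 8 residual degrees of freedom, the number of calls depended on the processing, while none of the 157 differences changed sign under any alternative. In place of 157 calls (123 more negative and 34 more positive) there were 14 (9 and 5) with a trended and robust variance, 17 (14 and 3) without moderation, 6 (6 and 0) after quantile normalization, 44 (25 and 19) on linear ratios and 580 (382 and 198) with array weights. A variance for each group, chosen after seeing the data, gave 243 calls with 64 positive ones. Median centring left 16 positive calls and leaving out _x_at and _s_at probe sets 21. At an unadjusted p there were 4665 (2270 and 2395). With 1 array left out the calls ran from 8 (WT_522B) to 408 (KO_591D), the negative ones from 8 to 236 and the positive ones from 0 to 172. The totals were 10 without WT_522C, 58 without KO_541J, 66 without KO_615B, 84 without KO_591C, 88 without KO_541L and 103 without KO_615A. With a limit of 0.26 or 1 in place of 0.5, the reversing calls were 67 or 8 and the fading ones 1 or 3. Signs turned only for differences near 0: Ptf1a gave 0.40 after quantile normalization, 0.45 without KO_615A and 0.33 without KO_541L, with -0.65 to 0.45 over the arrays left out, and Ctnnb1 gave -0.0734 without WT_628G. Of 490 list medians under alternatives 35 moved by more than the spread between replicates and 0 reversed. A median counted as reversed only where its sign turned and its main value exceeded that spread. Medians nearer 0 could change sign without being counted. The causes were not tested. No paired analysis was possible because the array names share no replicate numbers between groups. Signal over background is unknown for ratios.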
